A study of Mus musculus with 4 samples.

Results

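Retinoic acid, the signalling form of vitamin A, patterns the early embryo. Retinol is oxidised to retinaldehyde, which the retinaldehyde dehydrogenases encoded by Aldh1a1, Aldh1a2 and Aldh1a3 turn into retinoic acid. The cytochrome P450 enzymes encoded by Cyp26a1, Cyp26b1 and Cyp26c1 break retinoic acid down. The nuclear receptors encoded by Rara, Rarb and Rarg bind it and act on DNA together with RXR partners, and Stra6 encodes a membrane receptor that takes up retinol from its carrier in blood. Retinoic acid is also known to take part in the formation of hemogenic endothelium in the yolk sac. These 10 genes, chosen by name from 21924 protein-coding genes of the GENCODE vM21 annotation, were examined for H3K27me3. This is the trimethylation of histone H3 lysine 27 that the Polycomb enzyme Ezh2 places and that is known for marking repressed developmental genes.

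H3K27me3 was profiled by CUT&RUN, in which an antibody guides a nuclease to a chromatin mark and the released fragments are sequenced. The cells were erythro-myeloid progenitors (EMPs), blood progenitors of the yolk sac, from C57BL/6 mouse embryos at E10.5. All 4 libraries carried the same genotype label, which reads wild type beside Ezh2fl/fl and Tie2-Cre+/+, and the study treats them as wild type. Tie2-Cre acts in endothelium and its blood progeny. There was 1 H3K27me3 library from 500 EMPs and 1 from 15000 EMPs, each called against 1 IgG library of the same cell number, so no value below has a replicate and no test between cell numbers was possible. In the study's list of peak-calling commands, the entry for 500 EMPs reads the 15000-EMP alignments and the entry for 15000 EMPs reads the 500-EMP alignments. Whether each list was made from the library on its label could not be settled from the files, so each cell number below is that of the label. The list labelled 15000 EMPs held more peaks than that labelled 500 EMPs (15282 against 10223) and wider ones (median 770 against 363 bp). Whether animals were pooled was not given in the sources used here. The 500-EMP library also had a lower sequencing depth and alignment rate, another instrument and read length, and a stricter calling threshold, which cannot be told apart from cell number. Of the 5 genes that define the EMP gate or blood identity (Kit, Itga2b, Fcgr2b, Fcgr3 and Runx1), 0 had a peak within 3 kb of the gene start in either library. Of 5 endothelial genes, 1 had such a peak with 500 EMPs (Sox17) and 2 with 15000 EMPs (Sox17 and Kdr). Among all protein-coding genes the shares were 9.93% and 17.0%, so lists of 5 genes with 0 to 2 such peaks do not set either cell type apart.

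The files used were lists of peak positions on mm10 without height or read counts, so a gene was described by which peaks lay in it and how many base pairs they covered. In the genes or within 10 kb of them lay 26 of the 10223 peaks with 500 EMPs and 36 of the 15282 peaks with 15000 EMPs. With 1 shared bp counted as overlap, all 26 peaks of the 500-EMP library overlapped a 15000-EMP peak (100%, 95% exact binomial interval 86.8 to 100%, counting error only), against 91.2% of all its peaks. In the other direction 10 of 36 overlapped (27.8%, interval 14.2 to 45.2%), against 32.2% of all peaks. Several peaks lay in the same domain and are not independent, so both intervals are too narrow. These shares depended on the rule, since with at least 50% of the peak shared they were 92.3% and 2.78%, with at least 50% of both peaks shared they were 0%, and after joining peaks within 3 kb they were 100% and 50%. The 10 recovered peaks had a median width of 4191 bp and the 26 others one of 345 bp. Peaks covered 13639 bp of these windows with 500 EMPs and 63858 bp with 15000 EMPs, a ratio of 4.68, and the ratio over the whole lists was 4.03. The ratio at these genes also depended on the rule, since joining peaks within 3 kb gave 32734 bp and 75468 bp.

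The 10 genes differed widely in how much of them lay in peaks. Aldh1a2, Aldh1a3, Cyp26a1, Cyp26b1, Rara and Stra6 had peaks near a coding start in both libraries, Rarg and Rarb had them with 15000 EMPs alone, Cyp26c1 only shared the domain of its neighbour, and Aldh1a1 had none. A coding start is the 5′ end of any protein-coding transcript of the gene. Thus 6 of 10 genes had a peak within 3 kb of a coding start with 500 EMPs and 8 of 10 with 15000 EMPs. The shares among all protein-coding genes were 10.7% and 18.0%. By the outermost start of each gene the counts were 4 and 6 of 10, against 9.93% and 17.0% of all genes. Within 1 kb of that start they were 2 and 6 of 10, against 7.40% and 15.2%. For a peak in the gene or within 10 kb the counts were 7 and 9 of 10, against 15.1% and 25.0%. That wider window favours long genes, and counting any coding start favours genes with many starts.

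**Figure D1:**
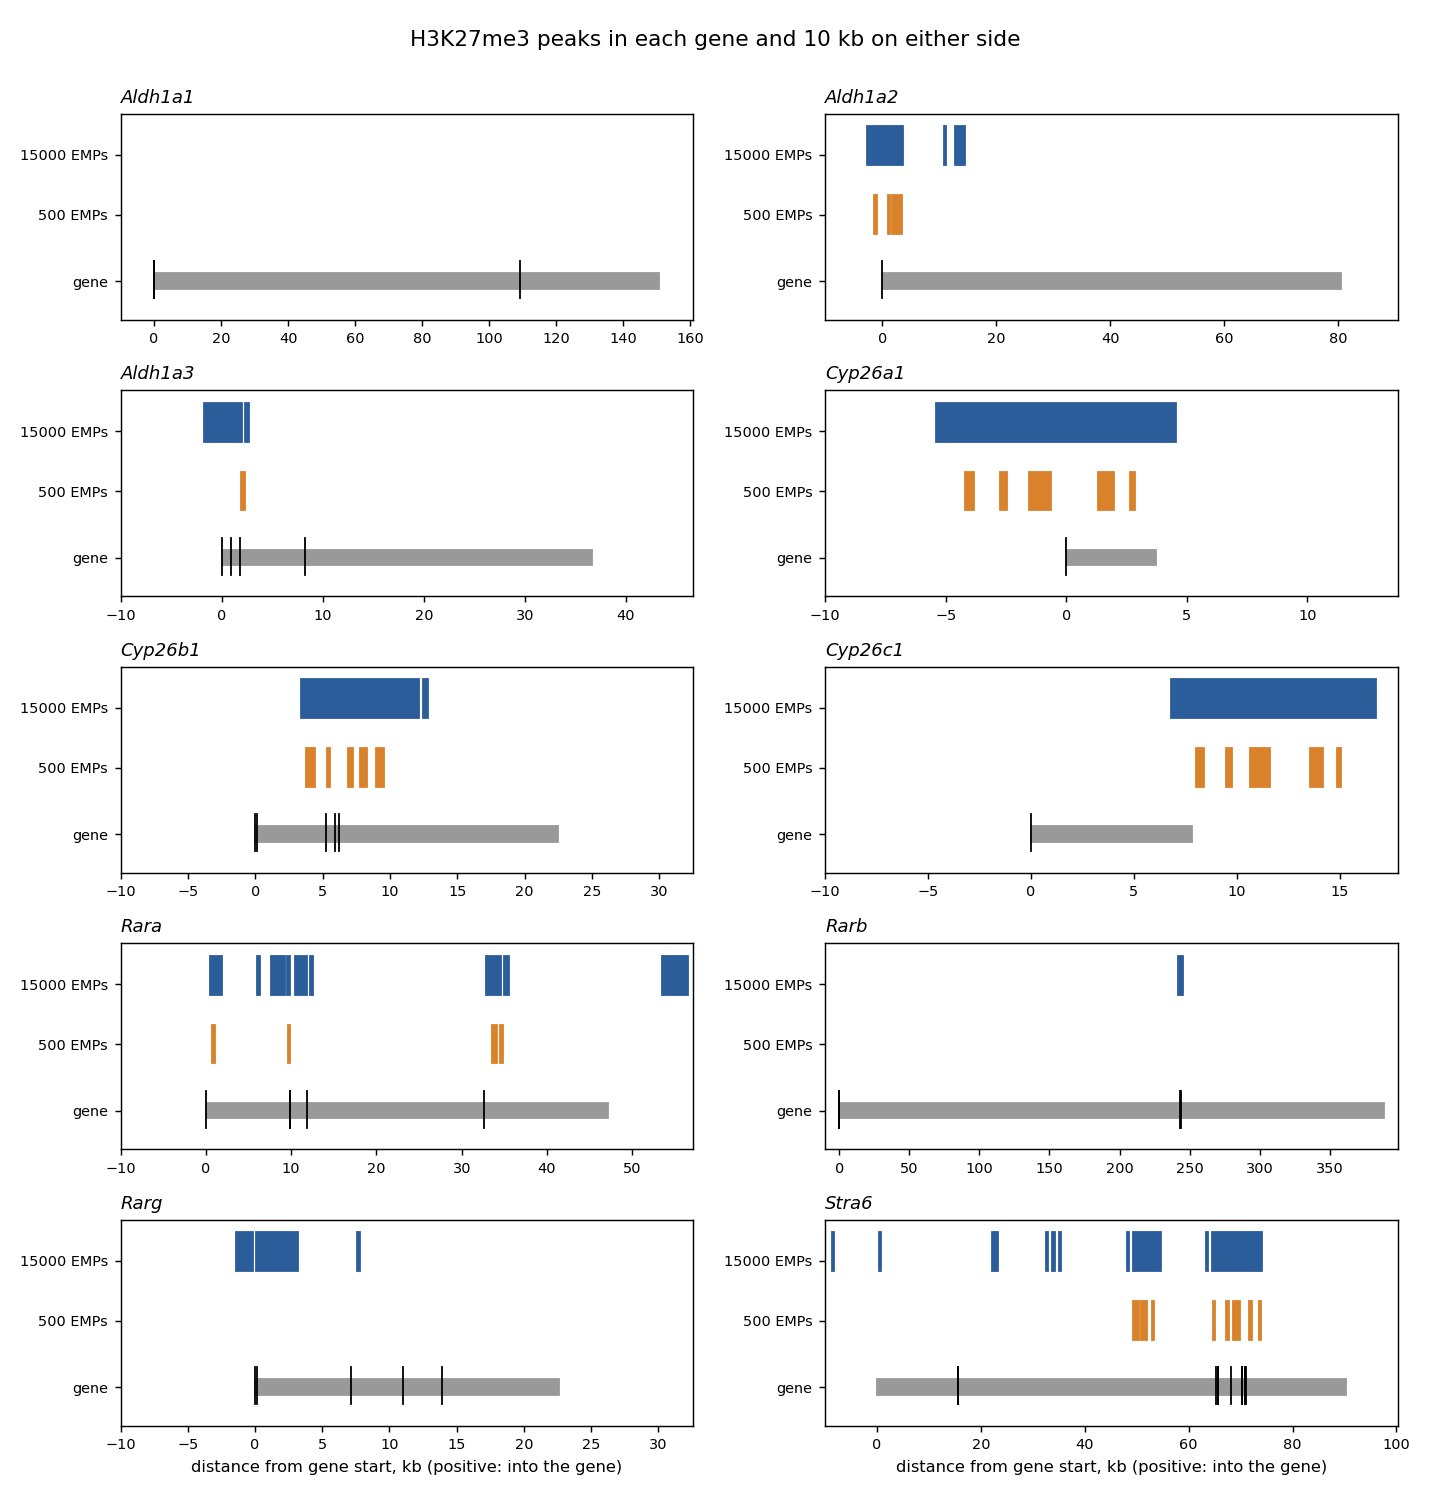
Peaks of both libraries (blue, 15000 EMPs; orange, 500 EMPs) in each gene and 10 kb on either side, against the distance from the gene start in kb in the direction of transcription. Grey bars are genes, black ticks are coding starts, and very narrow peaks are drawn at a minimum width so that they can be seen. Aldh1a1 has no peak, and the peaks in the Cyp26c1 panel are those of Cyp26a1.

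Promoter sequences from RefSeq (GRCm38.p6) were found for 9 of the 10 genes, 17 promoters in all, and Aldh1a3 was not in that table. Of their 250-bp stretches before the start site, 6 were covered in full and 4 in part with 15000 EMPs, and 0 and 2 with 500 EMPs. Over all 32851 promoters 6.33% were covered in full and 2.28% in part with 15000 EMPs, and 0.785% and 1.36% with 500 EMPs. Several of the 17 belong to the same gene and overlap. Those covered in full belonged to Stra6, Aldh1a2 and Cyp26a1 alone, and both covered in part with 500 EMPs belonged to Rara. The following pair is shown because it holds the retinoic acid response element, the sequence at which the receptors bind. The capitals mark that element, a direct repeat of hexamers with a 5-bp spacer, and both run 5′ to 3′ along the gene. Cyp26a1 is chr19:37697558-37697807 on the plus strand, and Rarb is chr14:16575477-16575726 on the minus strand.
Cyp26a1: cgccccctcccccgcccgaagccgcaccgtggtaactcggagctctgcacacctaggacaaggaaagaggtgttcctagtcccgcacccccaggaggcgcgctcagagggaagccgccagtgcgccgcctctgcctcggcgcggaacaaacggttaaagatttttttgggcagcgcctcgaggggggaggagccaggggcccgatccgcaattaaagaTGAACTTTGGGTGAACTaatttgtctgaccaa
Rarb: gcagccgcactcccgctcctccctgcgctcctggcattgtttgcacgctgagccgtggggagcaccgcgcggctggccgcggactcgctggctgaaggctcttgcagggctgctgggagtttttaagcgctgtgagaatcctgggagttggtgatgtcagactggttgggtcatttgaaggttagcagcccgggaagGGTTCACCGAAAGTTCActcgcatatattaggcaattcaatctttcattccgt

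The repeat was searched on both strands. Each hexamer could be AGGTCA, the variant form AGTTCA, the variant form GGGTCA or the variant form GGTTCA. In windows of 300 bp, 250 before and 50 after the start, it was present in 32 of 32851 promoters (0.0974%), among them those of Cyp26a1 and Rarb. The Cyp26a1 element read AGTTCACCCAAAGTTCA on the minus strand and began 32 bases before the RefSeq start. It lay inside a 15000-EMP peak and 601 bp from the nearest 500-EMP peak. The Rarb element read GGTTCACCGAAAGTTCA and began 53 bases before the start, with the nearest 15000-EMP peak 554 bp away. The element that lay in a peak was thus that of Cyp26a1, and that of Rarb was outside. Over all promoters with this repeat, 4 of 32 had it in a 15000-EMP peak and 0 of 32 in a 500-EMP peak. With a 2-bp spacer the repeat was in 88 promoters (0.268%), none of them of the 10 genes. These are matches of letters, and no binding was measured.

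Among the enzymes that make retinoic acid, Aldh1a2 and Aldh1a3 carried peaks over their starts with 15000 EMPs and Aldh1a1 did not. With 500 EMPs none of the 40 coding starts of the 10 genes lay inside a peak, whereas 18 did with 15000 EMPs. Of all 54321 coding starts of protein-coding genes, 1.15% and 7.60% lay inside a peak, and starts of the same gene often share one, as the 9 of Stra6 did. Aldh1a2, known as the main source of retinoic acid in the early embryo, had a 15000-EMP peak of 6232 bp at chr9:71213216-71219447. It reached 2573 bp upstream and 3658 bp downstream of the start. With 500 EMPs the same stretch held 3 separate peaks of 225, 258 and 1698 bp that covered 35.0% of it. They left a gap of 2102 bp around the start itself. Within 3 kb of the start, 1718 bp lay in peaks with 500 EMPs and 5574 bp with 15000 EMPs. A pair of further 15000-EMP peaks, of 382 and 1795 bp, lay in an intron and had no 500-EMP counterpart.

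Aldh1a3 acts mainly in sensory organs and the forebrain of the embryo. A 15000-EMP peak of 3805 bp, chr7:66425490-66429294, covered 3 of its 4 coding starts. A narrower peak of 364 bp followed in the intron, at chr7:66424841-66425204. The 500-EMP library had 1 peak there, 402 bp at chr7:66425245-66425646, which began in the space between the 15000-EMP peaks and shared 157 bp with the wider one. The peaks of the libraries thus overlapped only in part, and the 500-EMP peak lay 1871 bp inside the gene start. The covered length within 3 kb of the gene start was 402 bp and 4169 bp.

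Aldh1a1, which encodes the dehydrogenase of the dorsal retina and many adult tissues, stood apart. No peak lay in its 150751 bp or within 10 kb, at chr19:20492715-20643465, in either library. The nearest peak to its gene start was 978726 bp away with 15000 EMPs and 1383182 bp away with 500 EMPs. The stretches before the starts of Aldh1a2 and Aldh1a1 are shown because they differ in the dinucleotide CpG, and the capitals mark each CpG. Aldh1a2 is chr9:71215539-71215788 and Aldh1a1 is chr19:20492333-20492582, both on the plus strand.
Aldh1a2: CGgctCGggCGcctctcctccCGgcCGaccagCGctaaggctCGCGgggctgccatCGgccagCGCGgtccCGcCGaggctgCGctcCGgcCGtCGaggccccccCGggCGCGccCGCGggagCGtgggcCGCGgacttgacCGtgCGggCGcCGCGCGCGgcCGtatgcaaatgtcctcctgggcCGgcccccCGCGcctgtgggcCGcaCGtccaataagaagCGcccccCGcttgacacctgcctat
Aldh1a1: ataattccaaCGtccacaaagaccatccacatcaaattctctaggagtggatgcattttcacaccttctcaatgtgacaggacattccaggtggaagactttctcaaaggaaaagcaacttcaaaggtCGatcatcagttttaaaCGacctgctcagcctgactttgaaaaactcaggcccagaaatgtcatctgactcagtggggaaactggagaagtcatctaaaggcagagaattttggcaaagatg

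The Aldh1a2 stretch held 40 CpG and the Aldh1a1 stretch 3. The first was covered over all 250 bp with 15000 EMPs, and the other had no covered base. Other promoters differed from this pair. A Stra6 stretch with a promoter CpG ratio, observed over expected, of 0.184 was also covered in full. That of Rarb, at 0.696, had no covered base. A link between CpG and coverage was not tested.

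The enzymes that break retinoic acid down included the widest domain at these genes. Cyp26a1, whose product clears retinoic acid from the early embryo and whose gene retinoic acid induces, lay entirely in a 15000-EMP peak of 9968 bp, chr19:37692375-37702342. That peak began 5423 bp before the start and ended 806 bp past the gene. The 500-EMP library held 5 peaks in it, of 400, 278, 935, 651 and 208 bp, which covered 24.8% of it. The start fell in a gap of 1954 bp between them. Within 3 kb of the start 2072 bp were covered with 500 EMPs and all 6001 bp with 15000 EMPs. The same domain held the repeat with a 5-bp spacer a further time, 1889 bp before the start at chr19:37695909-37695925, shown here in capitals with 30 bases on either side on the plus strand.
Cyp26a1, upstream: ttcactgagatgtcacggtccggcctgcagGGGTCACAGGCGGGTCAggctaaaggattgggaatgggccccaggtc

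Thus the 36 peaks of the 15000-EMP library at these genes held 2 such repeats, both in the Cyp26a1 domain. That was 31.3 per Mb, against 3.63 per Mb over all 15269 peaks on assembled chromosomes, and with 2 matches the figure is a description only. The 26 peaks of the 500-EMP library held 0, against 3.87 per Mb over all its peaks. With a 2-bp spacer the peaks at these genes held 0 in both libraries, against 4.37 per Mb (500 EMPs) and 6.47 per Mb (15000 EMPs) over all peaks.

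Cyp26c1 lies next to Cyp26a1, 4400 bp upstream and on the same strand. The Cyp26a1 domain ran into its 3′ end and covered 1024 bp, or 13.1%, of Cyp26c1 with 15000 EMPs. With 500 EMPs 0 bp of the gene were covered, and the nearest peak lay 192 bp past its end. The Cyp26c1 start was 6794 bp from the nearest 15000-EMP peak and 8009 bp from the nearest 500-EMP peak. The deposited tables named these peaks for Cyp26a1 and gave Cyp26c1 no row. Exoc6, the next gene upstream, had none in the 3 kb around its start with either cell number.

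Cyp26b1, which protects the hindbrain, limbs and germ cells from retinoic acid, showed a domain at its internal starts and not at its outermost start. The 15000-EMP peak of 8760 bp, chr6:84581727-84590486, held 3 of the 5 coding starts (Cyp26b1-203, Cyp26b1-204 and Cyp26b1-205). The outermost start of the gene lay 3422 bp outside it. With 500 EMPs, 5 peaks of 605, 526, 360, 137 and 714 bp lay in that domain and covered 26.7% of it. In all, peaks covered 10.4% of Cyp26b1 with 500 EMPs and 40.6% with 15000 EMPs. The distance in the deposited table was 3421 bp for the wide peak, so Cyp26b1 had no row within the study's limit of 3 kb in either library.

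**Figure D2:**
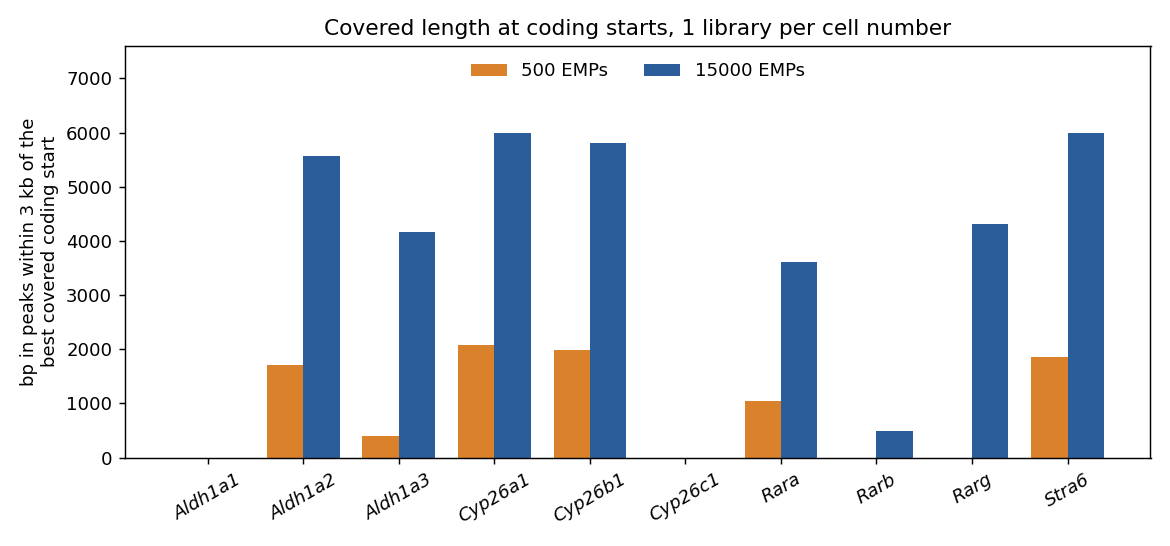
Base pairs in peaks within 3 kb of the coding start with the most coverage, taken separately in each library, for each gene (bars, 1 library per cell number, no error available). Cyp26a1 and Stra6 reach 6001 bp, the whole window, with 15000 EMPs, whereas Aldh1a1 and Cyp26c1 are at 0 in both libraries.

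The receptor genes have several promoters each, and peak coverage was measured at every coding start. Rara, the receptor gene known for its broad expression and its role in blood cells, had 9 peaks in its window with 15000 EMPs and 4 with 500 EMPs. Inside the gene they lay in 3 places, after the outermost start, around the starts of Rara-204, Rara-201 and Rara-207, and after the start of Rara-202. None of the 5 coding starts was itself inside a peak. The nearest 15000-EMP peaks were 507, 6, 26, 68 and 250 bp away, in the order of the starts along the gene. Within 1 kb of these starts, 24.7%, 61.1%, 61.1%, 57.9% and 37.5% of the window was covered with 15000 EMPs. With 500 EMPs the same shares lay between 0% and 6.90%. With 15000 EMPs the starts of Rara-204, Rara-201 and Rara-207 thus lay between peaks, and those of Rara-203 and Rara-202 had a peak within 1 kb on the downstream side alone. At the first place the 500-EMP call rested on a peak of 137 bp, the smallest width in that list.

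The peaks at the last of these places were named for Gjd3 in the deposited tables, although they lay inside Rara. They were 1819 and 652 bp wide with 15000 EMPs, and 683 and 359 bp with 500 EMPs. The Gjd3 gene, which encodes a connexin, had its own 15000-EMP peak of 3064 bp 6350 bp past the end of Rara. Cdc6, the replication gene upstream of Rara, had no peak within 3 kb of its start.

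Rarb is the receptor gene best known for its induction by retinoic acid, through the element printed above. It spans 388318 bp, chr14:16430839-16819156, and was the least covered of the receptor genes with 15000 EMPs, while with 500 EMPs both it and Rarg had no peak. The nearest 500-EMP peak was 3753090 bp from the start of Rarb-201. With 15000 EMPs there were 2 narrow peaks, of 319 bp (chr14:16574641-16574959) and 171 bp (chr14:16576403-16576573), the second having the smallest width of that list. They lay on either side of the internal starts of Rarb-201 and Rarb-207, with 1443 bp between them. Within 1 kb they covered 23.0% of the window at Rarb-201 and 15.2% at Rarb-207. The outer starts, Rarb-203 and Rarb-204, had no covered base within 1 kb and were 242583 and 242432 bp from the nearest of these peaks. Both peaks were named for Top2b in the deposited table, at distances of 139179 and 140941 bp, so that Rarb had no row there.

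Rarg, the receptor gene of skin, cartilage and the early body axis, had peaks with 15000 EMPs alone. A peak of 3123 bp (chr15:102254311-102257433) and a peak of 1224 bp (chr15:102257697-102258920) flanked the start of Rarg-201, which fell in the gap of 263 bp between them. The start of Rarg-205 was inside the wider peak. Within 1 kb, 86.9% of the window was covered at both. Further inside the gene the coverage was 12.4% at Rarg-206 and 0% at Rarg-202 and Rarg-204. The nearest 500-EMP peak to the gene start was 98614 bp away. The peak of 3123 bp was the widest at these genes without a 500-EMP counterpart.

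**Figure D3:**
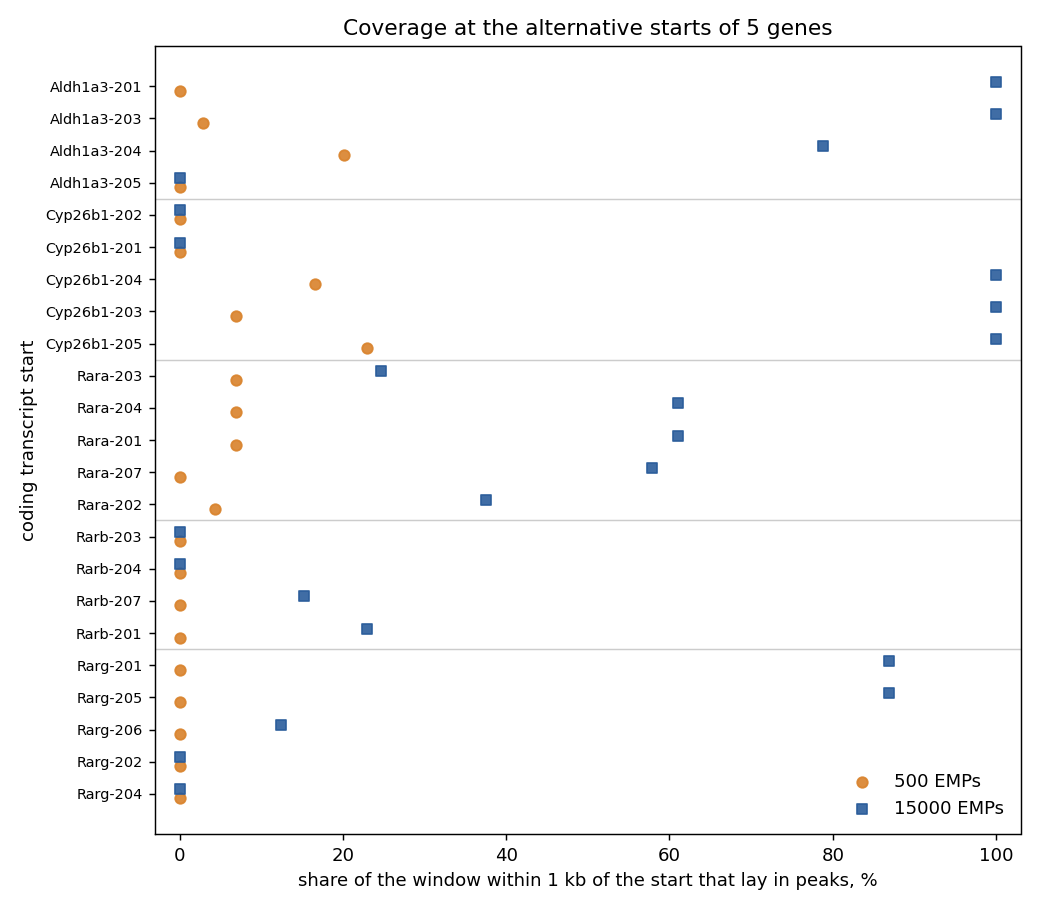
Share of the 2001-bp window around each coding start that lay in peaks, for the receptor genes, Cyp26b1 and Aldh1a3 (blue squares, 15000 EMPs; orange circles, 500 EMPs; starts run from the outermost to the innermost in each gene). With 15000 EMPs Cyp26b1 and Rarb are covered at inner starts, and Rarg and Aldh1a3 mainly at outer ones. With 500 EMPs Rarb and Rarg are at 0% at every start, and Aldh1a3 is highest at Aldh1a3-204 (20.1%).

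Stra6 showed how much the choice of start matters. Its gene model begins with a non-coding transcript, and near that outermost start lay a single 15000-EMP peak of 254 bp. The coding starts further in, where 9 of 11 lie, were inside a 15000-EMP peak of 7974 bp, chr9:58128347-58136320. With 500 EMPs that peak held 4 peaks, which covered 27.8% of it. The best covered coding start had 1853 bp in peaks within 3 kb with 500 EMPs and all 6001 bp with 15000 EMPs. The outer coding starts, Stra6-208 and Stra6-203, were 6784 and 6709 bp from the nearest 15000-EMP peak.

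A domain of 4577 bp, chr9:58113030-58117606, lay in an intron of Stra6 and held 3 peaks of the 500-EMP library, of 1135, 1105 and 137 bp. At this place Ccdc33 overlaps Stra6 on the opposite strand, and the domain lay near the Ccdc33 start, so it cannot be given to either gene by position alone. In the deposited tables all 8 of the 500-EMP peaks and 10 of the 14 of the 15000-EMP peaks in the Stra6 window were named for Ccdc33. This included the peak over the 9 Stra6 starts, at a stated distance of 9524 bp from Ccdc33.

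In all, 10 of the 26 peaks with 500 EMPs and 15 of the 36 with 15000 EMPs were named for Ccdc33, Gjd3 or Top2b. By the deposited distance of at most 3 kb, 4 of the 10 genes were found with 500 EMPs (Aldh1a2, Aldh1a3, Cyp26a1 and Rara) and 6 with 15000 EMPs (those with Rarg and Stra6), against 9.66% and 16.6% of all protein-coding genes. Stra6 entered that count through the peak of 254 bp, whereas Cyp26b1, with a domain of 8760 bp, did not enter it. Beyond the window, the 15000-EMP table named Cyp26a1 for a peak 112729 bp downstream and Stra6 for a peak 14766 bp upstream. The farthest peak inside a window lay 8297 bp from Stra6 (314 bp wide), and the nearest outside lay 10995 bp from Rarg (475 bp wide).

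Widths were next set beside the rest of the lists. Of the 15000-EMP peaks at these genes, 4 of 36 were wider than 5 kb, namely those at Cyp26a1, Cyp26b1, Stra6 and Aldh1a2, against 5.73% of all peaks. The median width was 379 bp, below the 770 bp of the whole list. With 500 EMPs the widest peak was 1698 bp, at Aldh1a2, and the medians were 380 and 363 bp. Across all protein-coding genes with a peak within 3 kb of the gene start, the median covered length there was 789 bp with 500 EMPs and 2744 bp with 15000 EMPs. The 4 genes above the latter were Aldh1a2, Aldh1a3, Cyp26a1 and Rarg, while Rara (1368 bp) and Stra6 (254 bp) lay below. With 500 EMPs 2 of 4 genes were above the median, Aldh1a2 and Cyp26a1, and Aldh1a3 (402 bp) and Rara (137 bp) were below.

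Base composition was measured in 1001 bp centred on each start, as CpG observed over expected. All gene starts were ranked by this ratio and split into 4 groups of 5476. From the poorest in CpG to the richest, the shares with a peak within 3 kb were 1.70%, 10.4%, 16.3% and 11.4% with 500 EMPs. With 15000 EMPs they were 3.85%, 19.5%, 26.9% and 17.8%. The fewest starts with a peak were thus in the group poorest in CpG. At the genes described here, ratios were highest at Aldh1a2 (0.929) and at Cyp26b1-204 (0.847), and both were inside wide 15000-EMP peaks. Neither lay in a 500-EMP peak, and Aldh1a2 had 0 bp covered within 1 kb in that library. The start of Rarb-201 had 0.779 and narrow 15000-EMP peaks beside it, and Cyp26a1 had 0.727. Aldh1a1, at 0.186, and the outer Rarb start, at 0.100, were in the poorest group and uncovered.

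Within Cyp26b1 the ratio was 0.221 at the uncovered outermost start and 0.587 to 0.847 at the starts covered with 15000 EMPs. The ratio did not mark covered starts everywhere. The 9 Stra6 starts covered with 15000 EMPs had ratios of only 0.156 to 0.279, and Rarg-202, at 0.631, had no covered base within 1 kb.

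**Figure D4:**
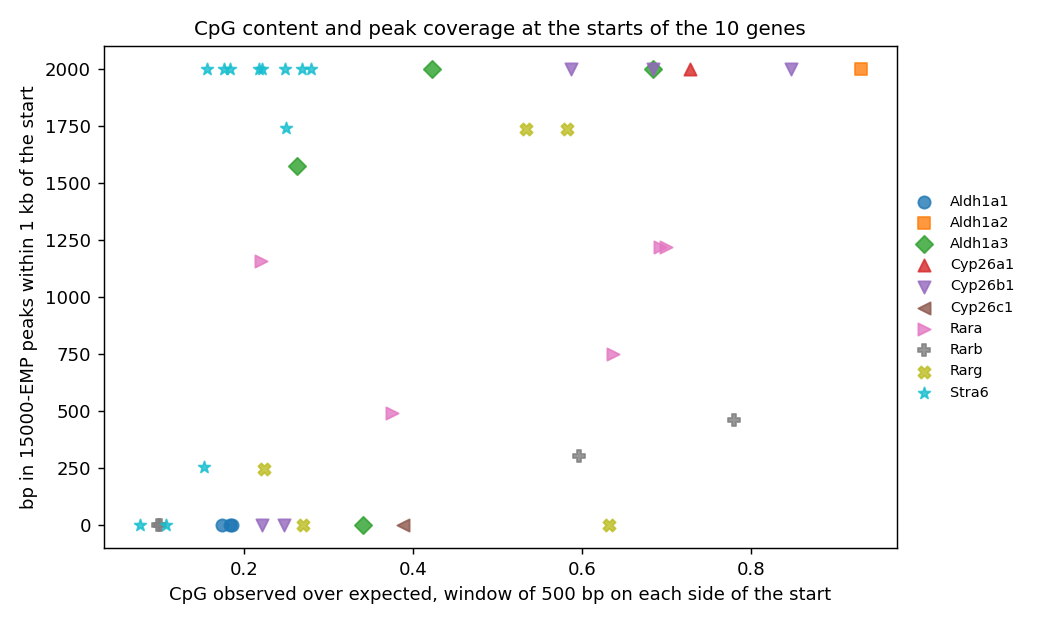
CpG observed over expected (horizontal) and base pairs in 15000-EMP peaks within 1 kb of the start (vertical) for the 40 coding starts of the 10 genes and the non-coding gene start of Stra6. Uncovered starts lie mostly at the left, and the Stra6 starts at the upper left are covered at ratios of 0.156 to 0.279.

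Other retinoid genes were counted in lists written from general knowledge, but with earlier results of these data known. Their counts are a description only. Of 13 genes that supply or remove retinaldehyde, 0 had a peak within 3 kb of the gene start with 500 EMPs and 1 with 15000 EMPs, which was Dhrs3, the enzyme that returns retinaldehyde to retinol. Its peak was 350 bp wide. Rdh10, the main retinol dehydrogenase of the embryo, had none. The shares of all protein-coding genes were 9.93% and 17.0%, and counts this small do not set the list apart. For a peak in the gene or within 10 kb the counts were 0 and 3 of 13, against 15.1% and 25.0% of all genes.

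Of 12 genes for binding, transport and storage, 3 had a peak with 500 EMPs and 7 with 15000 EMPs, against 9.93% and 17.0% of all protein-coding genes. Among those in both were Crabp1 and Crabp2, which encode cellular retinoic acid binding proteins, and Rbp4, the retinol carrier of blood. Covered lengths within 3 kb were 1871 and 5048 bp at Crabp1, 2259 and 5867 bp at Crabp2, and 546 and 3961 bp at Rbp4, with 500 and 15000 EMPs respectively. Lrat, which stores retinol as esters, had 2853 bp with 15000 EMPs, and Lpl, which encodes lipoprotein lipase, had 3633 bp. Stra6l (215 bp) had a narrow peak.

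Among RXR partners and coregulators, 2 of 10 had a peak in each library, Rxrg and Ncoa1. Rxrg, the RXR gene of narrow expression, had 328 bp covered with 500 EMPs and 3416 bp with 15000 EMPs, and Ncoa1 1105 and 2295 bp. Rxra and Rxrb had no peak within 3 kb of the start. The count of 2 of 10 with 15000 EMPs was close to the 17.0% of all protein-coding genes, and the share with 500 EMPs was 9.93%. Of 8 related aldehyde dehydrogenases and P450 enzymes, 1 had a peak with 500 EMPs and 3 with 15000 EMPs. These were Cyp1b1, an enzyme that can also make retinoic acid, with 1233 and 6001 bp, and with 15000 EMPs alone Aldh1l2 (1778 bp) and Cyp2s1 (2674 bp). The count of 1 of 8 was close to the 9.93% of all genes, and counts this small do not set either list apart.

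Of 13 genes known to respond to retinoic acid, 9 had a peak with 500 EMPs and 12 with 15000 EMPs, where the shares of all protein-coding genes were 9.93% and 17.0%. Among those in both libraries were Hoxb1, Hoxd4, Cdx1, Tgm2, Tbx5, Nr2f1 and Nr2f2, and Tshz1, Rarres1 and Zfp703 were added with 15000 EMPs. The gene without a peak was Stra8, the meiosis gene induced by retinoic acid in germ cells. Most of the 13 encode developmental transcription factors, a class that carries H3K27me3 often. Their coverage with 15000 EMPs ranged from 804 bp at Rarres1 to 6001 bp at Tbx5 and Nr2f2 among the 12. Over the 5 lists, 15 of 56 genes had a peak with 500 EMPs and 25 of 56 with 15000 EMPs, beside the same 9.93% and 17.0%. Because earlier results were known when the lists were written, these shares are not independent of the data.

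**Figure D5:**
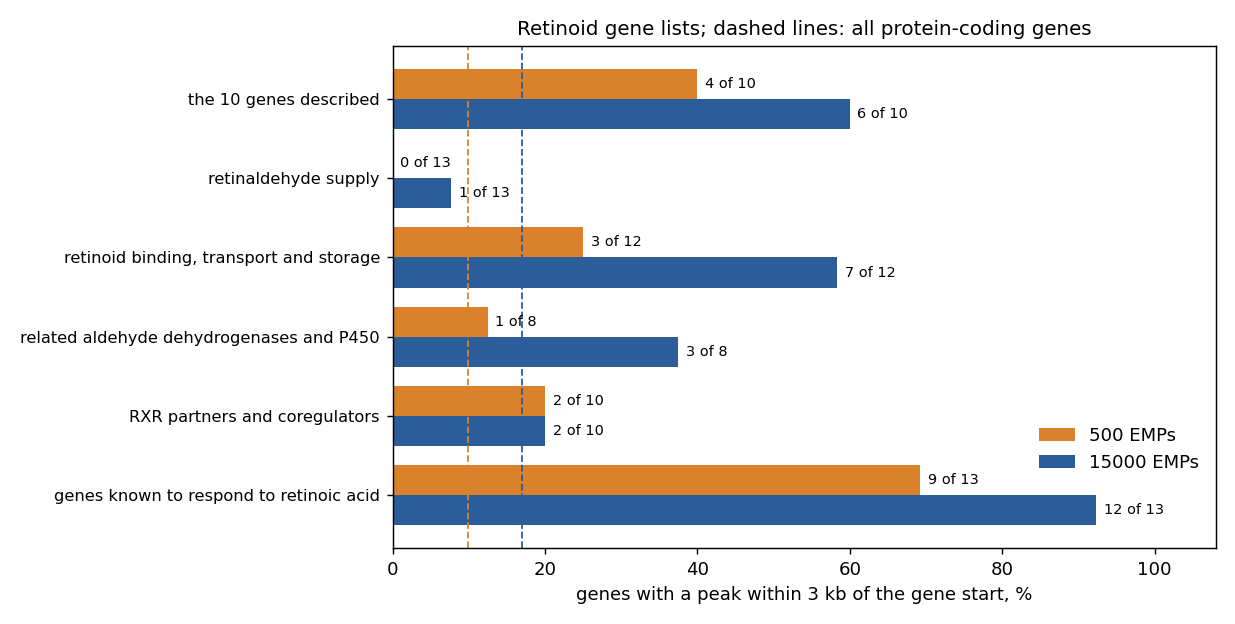
Share of genes with a peak within 3 kb of the gene start in each retinoid list and in the 10 genes described (orange, 500 EMPs; blue, 15000 EMPs; counts beside the bars). Dashed lines show the share among all protein-coding genes, 9.93% and 17.0%. The list for retinaldehyde supply lies below them, by counts too small to set it apart, and the list of responsive genes far above.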

How the data were processed

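The data were CUT&RUN libraries of sorted yolk sac EMPs. Per the study's methods, the authors aligned reads to mm10 with Bowtie2 2.2.1 and called broad peaks with MACS2 2.1.2 in each H3K27me3 library against IgG, with p-value limits of 0.01 (500 EMPs) and 0.05 (15000 EMPs). The study's command listing keeps these limits but exchanges the input alignments of the cell numbers, so whether the lists were called as labelled is not settled. Labels were followed here, and the list labelled 15000 EMPs held more and wider peaks. The sources differ on the library kit and on the ChIPpeakAnno version used for annotation. The deposited positions and distances are in bp, with no score, so the depth behind a peak is unknown from these lists, and signal tracks were not used here. The part of depth in narrow or absent peaks was not tested.

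Starts of the annotated tables were 1-based, and their ends were lowered by 1 bp, after which all peaks matched the peak lists. No peak ran past a chromosome end of GRCm38. Genes, coding starts and exons came from GENCODE vM21. Overlap meant at least 1 bp. The 10 genes and all lists were chosen with earlier results of these data known, and the genes of the lists with a peak were named, apart from some that are not reported here. Code was tested on simulated intervals and sequences. With 1 library per group, no test between groups was run. Python 3.11.15, pandas 2.3.3, numpy 2.4.6 and scipy 1.17.1 were used. Alternatives were the distance limit, the start used, the overlap rule, joining of peaks and removal of the smallest peaks.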

Additional observations from a re-analysis of the deposited data

How the results depend on the processing

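Of 40 alternatives to 12 counts, lengths and shares, 31 kept counts and lengths within 1.5 times, and shares within the exact interval, of the value reported, and 9 did not. That interval treats peaks as independent, although several lay in the same domain. With a limit of 1 kb, 2 of the 10 genes had a peak at 500 EMPs, both by the deposited distance and by the gene start, in place of 4 (7.40% of all protein-coding genes by either measure). Joining peaks within 3 kb left 9 peaks with 500 EMPs and 18 with 15000 EMPs, raised the length covered with 500 EMPs to 32734 bp, and gave 50% of the 15000-EMP peaks an overlapping 500-EMP peak. The latter was 2.78% when at least 50% of the query peak had to be shared. When at least 50% of both peaks had to be shared, the share was 0 in each direction. Leaving out the smallest peaks removed Rara from the 500-EMP count, which became 3. No paired analysis was possible because each group had 1 library. The peaks at Rarb and Rarg were in the 15000-EMP list alone, and without heights the files do not show how far any peak was from the calling threshold.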
